A study of Solanum lycopersicum with 24 samples.

Results

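Tomato plants called slful were compared with wild-type (WT) plants at the transition meristem (TM), the stage at which the shoot tip changes from making leaves to making flowers. The comparison rests on 6 of the study's 24 RNA sequencing libraries, 3 from slful and 3 from WT, chosen by genotype and stage alone, and it takes in all 34075 genes of the deposited table. The other libraries come from the same genotypes at the vegetative meristem (VM), at a stage that takes the floral meristem and its flanking inflorescence meristem together (FIM), and at the same stage of the first sympodial shoot (SFIM), with 3 libraries for each genotype and stage. The slful genotype is written in the deposited legend as ful1/ful2/mbp10/mbp20, so it is named for changes in 4 genes at once. No source used here gives the kind of mutation in each gene or says whether slful is a single line, and single mutants were not analysed here. The plants were grown in a greenhouse, each library pooled 30 to 60 hand-collected meristems from many plants, and no source used here gives the age of the plants.

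The 4 genes belong to the FRUITFULL-like (FUL-like) branch of the MADS-box family of transcription factors. In Arabidopsis, FRUITFULL acts with APETALA1 and its relatives in the switch to flowering, and related genes later act in the fruit. In tomato the main shoot ends in an inflorescence and growth goes on from a side shoot, so the timing of the transition meristem sets how many leaves are made before the first flowers. Florigen made in leaves, SOC1-like MADS-box genes, and hormones such as cytokinin and gibberellin are known to feed into this switch.

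Depth, as implied by the deposited values, was 12.93, 38.73 and 21.44 M reads in the slful TM libraries and 60.89, 32.04 and 90.37 M in the WT TM libraries (M, mega). Values are RPKM (reads per kilobase of gene and per M of mapped reads), and fold changes were taken as log2 of slful over WT after adding 0.5 RPKM, so the change of weakly expressed genes is understated. The median SD of a gene's log2 values between replicates was 0.14 in slful TM and 0.15 in WT TM, against 0.08 and 0.113 at VM. Genes were tested with limma over all 24 libraries, with 1 weight per group, and were called at a Benjamini-Hochberg adjusted p under 0.05 over the 18786 genes that passed a filter on low values. Deposited descriptions exist only for genes on the authors' own lists of changed genes. Where a locus has no description that names it, its symbol comes from lists written for these locus IDs and it is written here as "listed as". The meristem markers listed as TKN2, WUS, CLV3, CLV1 and LS were present in all 6 libraries. Of the 5 markers of later floral organs, those listed as TAP3 and TAGL1 averaged 0.00759 and 0 RPKM in slful and 0 and 0.0204 RPKM in WT. The list was not silent, however, and 2 of its loci, listed as TM6 and TAG1, passed the filter. Summed over the 5 markers, the level was 31.46, 23.62 and 27.27 RPKM in slful, against 22.93, 24.74 and 22.96 RPKM in WT.

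At TM 69 genes were called, 46 higher and 23 lower in slful, which is 0.367% of the genes tested (0.245% higher and 0.122% lower). The median change of a called gene was 1.18 among those that rose and -0.79 among those that fell, and 37 changed over 2-fold, 30 upward and 7 downward. For 68 of the 69 the values of the genotypes did not overlap, as was the case for 15.6% of all genes tested (5.91% with slful above and 9.74% with slful below). Of the called genes, 42 have a deposited description and 25 have neither a description nor a place in the gene lists used here. At an unadjusted p under 0.05 there were 2092 genes. In bulk tissue, fewer cells of a type and less RNA per cell cannot be told apart, which applies to each difference given here.

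**Figure D1:**
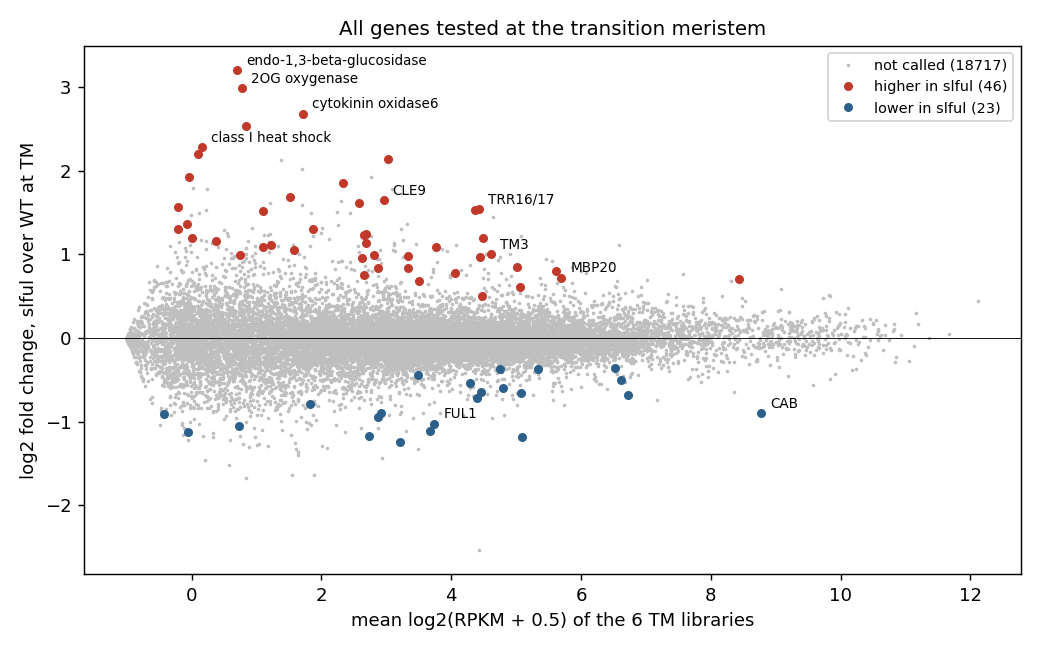
Log2 fold change of slful over WT at TM (vertical axis) against the mean log2(RPKM + 0.5) of the 6 TM libraries (horizontal axis), 1 point per gene. The 46 genes called higher reach 3.20 and the 23 called lower reach -1.24.

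The count of calls rested on the spread assumed and on which libraries were used. Without group weights it was 339 (1.8% of the genes tested), 153 higher (0.814%) and 186 lower (0.99%). With replicate number as a block it was 183 (0.974%, with 0.559% higher and 0.415% lower), and 67 of the 69 genes were among them in the same direction. With the 6 TM libraries alone, where the spread is estimated from these libraries only, it was 4 (0.0213%, with 4 higher and 0 lower, all 4 among the 69). It was 12 without slful TM replicate 2, 9 without slful TM replicate 3 and 15 without WT TM replicate 3, but 165 without slful TM replicate 1 and 111 without WT TM replicate 2. Without WT TM replicate 1 it was 78, of which 68 were higher and 10 lower.

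Transcripts of all 4 FUL-like genes were detected in slful. FUL1 (Solyc06g069430, described as FRUITFULL-like MADS-box 1) had 8.52, 9.75 and 8.43 RPKM in slful, against 13.9, 25 and 18.5 RPKM in WT. All 3 slful libraries were below all 3 WT libraries, and the slful values lay close together whereas WT TM replicate 2 was the highest. FUL1 fell by 1.02 log2 units (SE 0.22, adjusted p = 0.0428), a call that was lost without slful TM replicates 2 or 3 or WT TM replicates 2 or 3 (adjusted p = 0.088 to 0.264), in a range of 0.00299 to 0.264 over the alternatives. At the locus listed as FUL2 (Solyc03g114830) there were 17.9, 15.1 and 15.3 RPKM in slful, against 20.1, 30.6 and 23.4 RPKM in WT. The genotypes did not overlap, but the difference of -0.58 (SE 0.16, adjusted p = 0.116) was not called.

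MBP20 (Solyc02g089210, described as a MADS box transcription factor) was the most abundant of the 4 in both genotypes, with 69, 66.8 and 62.6 RPKM in slful, against 28.1, 53 and 42.6 RPKM in WT. Every slful library was above every WT library, and WT TM replicate 1 was the lowest of the 6. MBP20 rose by 0.72 log2 units (SE 0.14, adjusted p = 0.0272), a call lost without slful TM replicates 2 or 3 or WT TM replicates 1 or 3 (adjusted p = 0.0561 to 0.198), in a range of 0.00141 to 0.404 over the alternatives. Lowest of the 4 was the locus listed as MBP10 (Solyc02g065730), with 1.87, 2.56 and 1.92 RPKM in slful, against 1.82, 1.99 and 1.99 RPKM in WT. These values overlapped, and the difference was 0.09 (SE 0.21, adjusted p = 0.946). Of the 4 genes, then, 1 rose, 1 fell and 2 were not called, where 0.245% of all genes tested rose and 0.122% fell.

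Among the SOC1-like and SVP-like MADS-box genes, relatives of the Arabidopsis flowering regulators SOC1 and SVP, 1 of 5 rose and 0 fell, against 0.245% and 0.122% of all genes tested. TM3 (Solyc01g093965, described as a MADS-box transcription factor), a SOC1 relative, had 30.1, 34 and 39.4 RPKM in slful, against 17.4, 17.8 and 15.5 RPKM in WT. The lowest slful library stood well above the highest WT library. TM3 rose by 1.0 log2 units (SE 0.2, adjusted p = 0.0269), and the call was lost without slful TM replicates 2 or 3 or WT TM replicate 3 (adjusted p = 0.12 to 0.257), in a range of 0.00592 to 0.257 over the alternatives. STM3 (so listed, Solyc01g092950) had 136, 161 and 182 RPKM in slful, against 126, 121 and 124 RPKM in WT, and the locus listed as J (Solyc11g010570), an SVP relative needed in tomato for the joint of the flower stalk, had 250.0, 207 and 230.0 RPKM in slful, against 156, 176 and 194 RPKM in WT. Neither was called, with log2 differences of 0.35 (SE 0.15, adjusted p = 0.35) for STM3 and 0.38 (SE 0.1, adjusted p = 0.0999) for J. The loci listed as MBP24 (Solyc01g105800) and MBP18 (Solyc03g006830) gave 0.46 (SE 0.19, adjusted p = 0.336) and 0.22 (SE 0.17, adjusted p = 0.71). All 5 differences were above 0, with a median of 0.38 against -0.02 over all genes tested, and in 4 of the 5 every slful library was above every WT library, against 5.91% of all genes tested.

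**Figure D2:**
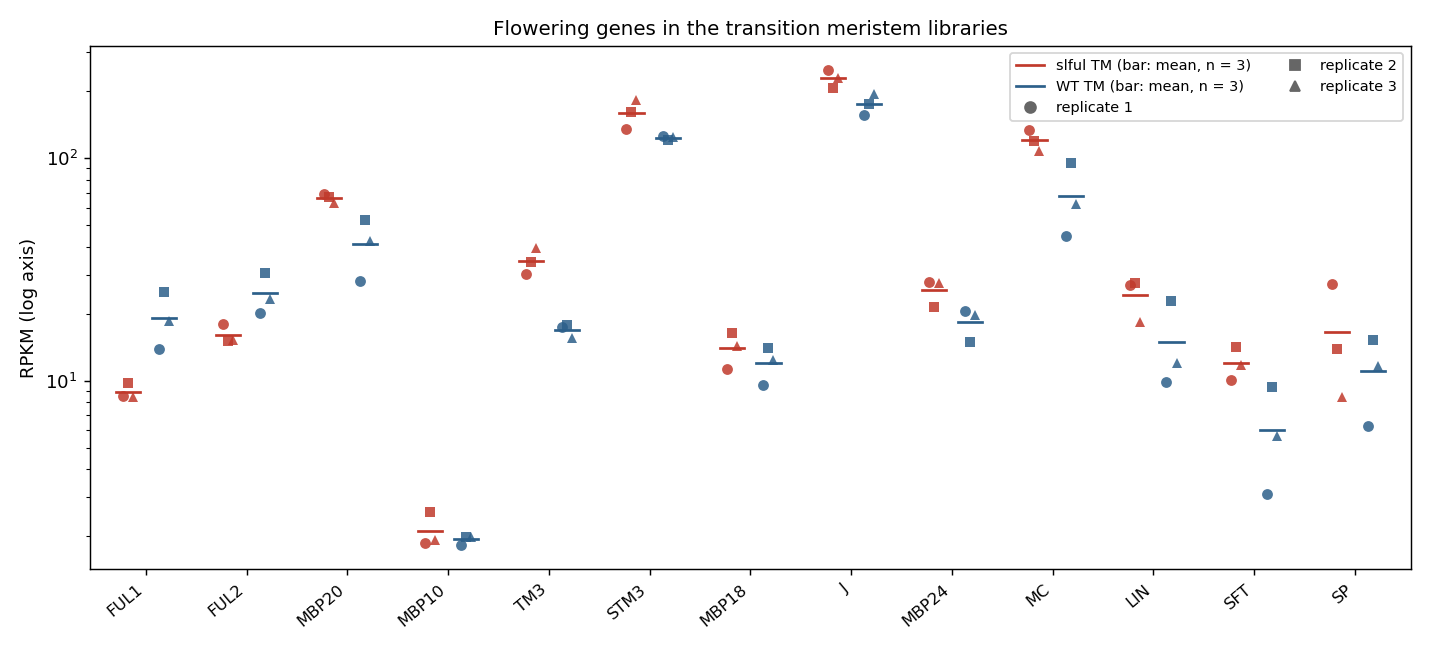
RPKM on a log axis of the FUL-like, SOC1-like, SVP-like, SEPALLATA-like and florigen genes in the 6 TM libraries, slful in red left of WT in blue, with a bar at the mean of 3 libraries. MBP20 and TM3 lie higher in all 3 slful libraries and FUL1 lower, while SP and MBP10 overlap.

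Among the SEPALLATA-like and AP1-like MADS-box genes, which act in flower meristem and floral organ identity, 0 of 7 were called. Macrocalyx (Solyc05g056620), an AP1 relative with a part in sepal size and inflorescence growth in tomato, had 134, 120.0 and 108 RPKM in slful, against 44.8, 95.4 and 62 RPKM in WT. The slful libraries all lay above the WT libraries, and within WT the values spanned over 2-fold. Its difference of 0.9 (SE 0.28, adjusted p = 0.195) was not called. The locus listed as LIN (Solyc04g005320) had 26.9, 27.5 and 18.3 RPKM in slful, against 9.86, 22.8 and 12 RPKM in WT, and here WT TM replicate 2 lay above slful TM replicate 3. The median difference of the 7 was 0.32, with 4 above 0.

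The florigen family was represented by 2 genes that passed the filter, and 0 were called. The tomato florigen, at the locus listed as SFT (Solyc03g063100), had 10.1, 14.2 and 11.8 RPKM in slful, against 3.08, 9.35 and 5.62 RPKM in WT. The genotypes did not overlap, and WT TM replicate 1 was the lowest. The difference was 1.05 (SE 0.29, adjusted p = 0.124), and 0.0234 with replicate as a block, in a range of 0.0114 to 0.428 over the alternatives, so the block turns this gene into a call. SELF PRUNING, the TFL1 relative that keeps tomato shoots growing, at the locus listed as SP (Solyc06g074350), had 27.3, 13.9 and 8.42 RPKM in slful, against 6.25, 15.2 and 11.7 RPKM in WT, with wide overlap. The other 2 loci of the list, SP5G and SP9D, had 0 RPKM in all 6 libraries and were not tested.

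Of the 10 inflorescence architecture genes 0 were called, and 4 of the 10 differences were above 0. FALSIFLORA (listed as FA, Solyc03g118160), the tomato relative of LEAFY, had 87.3, 139 and 139 RPKM in slful, against 121, 154 and 148 RPKM in WT. ANANTHA (listed as AN, Solyc02g081670), which marks the later flower meristem, was near the detection limit with 0, 0.453 and 0.443 RPKM in slful, against 0.288, 1.28 and 0.105 RPKM in WT. COMPOUND INFLORESCENCE (listed as S, Solyc02g077390) had 49.1, 65.4 and 64.9 RPKM in slful, against 38.4, 50.5 and 42.5 RPKM in WT. In all 3 genes the genotypes overlapped, with log2 differences of -0.24 (SE 0.14, adjusted p = 0.592) for FA, -0.31 (SE 0.39, adjusted p = 0.878) for AN and 0.44 (SE 0.19, adjusted p = 0.386) for S.

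Genes tied to cytokinin were counted apart, as 4 found by their description and 7 type-A response regulators listed by locus ID. Cytokinin oxidases remove the hormone, and type-A response regulators are known from Arabidopsis to be induced by cytokinin and to dampen its signal. Of the 4 genes with cytokinin in their description, 2 rose and 0 fell, where 10.9% of all described genes were called in either direction. Cytokinin oxidase6 (Solyc12g008900) had 9.4, 4.48 and 11.3 RPKM in slful, against 0.279, 1.57 and 0.869 RPKM in WT. Even the lowest slful library, replicate 2, was above the highest WT library, also replicate 2. The gene rose by 2.68 log2 units (SE 0.5, adjusted p = 0.0203), and the call was lost without slful TM replicates 2 or 3 or WT TM replicates 1 or 3 (adjusted p = 0.0524 to 0.212), in a range of 0.00122 to 0.212 over the alternatives.

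Cytokinin oxidase/dehydrogenase 2 (Solyc10g017990) had 3.64, 4.13 and 6.47 RPKM in slful, against 0.415, 2.2 and 1.11 RPKM in WT, again without overlap. Its rise of 1.69 log2 units (SE 0.37, adjusted p = 0.0499) lay at the edge of the threshold and was lost without slful TM replicates 2 or 3 or WT TM replicates 1 or 3 (adjusted p = 0.16 to 0.331), in a range of 0.00736 to 0.344. Cytokinin dehydrogenase 1 (Solyc04g016430) had 2.3, 3.19 and 2.11 RPKM in slful, against 0.391, 0.79 and 1.01 RPKM in WT, and its difference of 1.32 (SE 0.32, adjusted p = 0.083) was not called, but gave adjusted p = 0.01 with replicate as a block, in a range of 0.00781 to 0.305. Cytokinin oxidase4 (Solyc04g080820) had 3.59, 3.42 and 2.09 RPKM in slful, against 0.206, 2.19 and 1.21 RPKM in WT. Here WT TM replicate 2 was above slful TM replicate 3, and the difference of 1.23 (SE 0.3, adjusted p = 0.0874) was not called. Descriptions were deposited for genes of the authors' own tables alone, so the count of 2 in 4 comes from a pool of 387 described genes of which 42 were called (10.9%, against 0.147% of the 18399 tested genes without one).

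Of the 7 type-A response regulators, a list made by locus ID, 2 rose and 0 fell, against 0.245% and 0.122% of all genes tested. The Tomato Response regulator 16,17 gene (Solyc06g048930, listed as TRR16/17) had 35.9, 38.6 and 34.5 RPKM in slful, against 6.35, 23.6 and 11.6 RPKM in WT. The slful libraries lay close together, whereas the WT libraries spanned over 3-fold from replicate 1 to replicate 2. It rose by 1.55 log2 units (SE 0.31, adjusted p = 0.0269), a call lost without slful TM replicates 2 or 3 or WT TM replicates 1 or 3 (adjusted p = 0.0837 to 0.209), in a range of 0.000471 to 0.373. The locus listed as TRR16/17b (Solyc06g048600) had 28, 33 and 29.1 RPKM in slful, against 10.9, 20.9 and 14.9 RPKM in WT, in the same order of libraries within WT. It rose by 0.97 log2 units (SE 0.2, adjusted p = 0.0302), lost without slful TM replicates 2 or 3 or WT TM replicates 1 or 3 (adjusted p = 0.107 to 0.216), in a range of 0.00226 to 0.336. The most abundant regulator was listed as TRR8/9a (Solyc03g113720), with 73.6, 69.6 and 74.9 RPKM in slful, against 43, 46.5 and 48.4 RPKM in WT, and its difference of 0.66 (SE 0.19, adjusted p = 0.138) was not called. All 7 differences were above 0, as were 8258 of the 18786 genes tested, and their median was 0.66, against -0.02 over all genes. In 5 of the 7 every slful library was above every WT library, against 5.91% of all genes tested. No source used here says whether the 2 loci listed as TRR16/17 share reads.

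**Figure D3:**
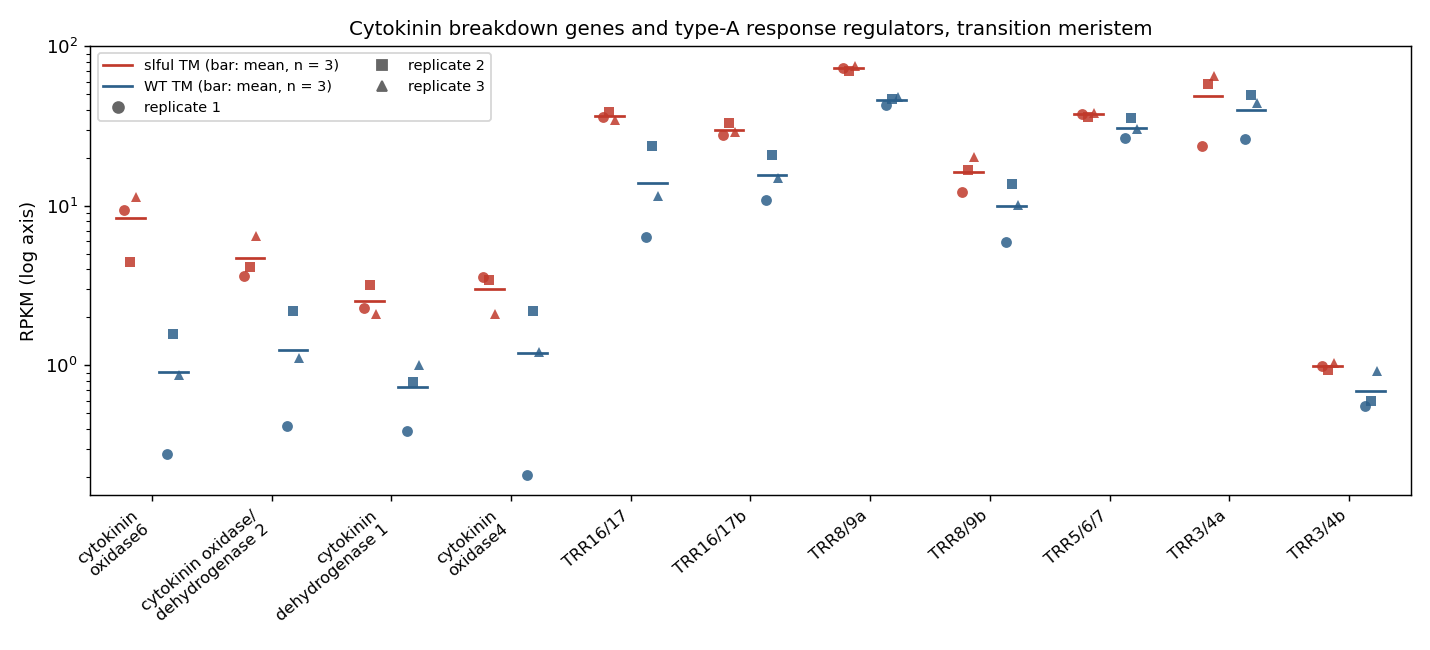
RPKM on a log axis of 4 cytokinin breakdown genes and 7 type-A response regulators in the 6 TM libraries, slful in red left of WT in blue, with a bar at the mean of 3 libraries. WT TM replicate 1, shown as a circle, is the lowest of the 3 WT libraries for each gene plotted.

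In the stem cell and KNOX list 1 of 9 genes rose and 0 fell, against 0.245% and 0.122% of all genes tested. The locus listed as CLE9 (Solyc06g074060, deposited as an unknown protein), a small peptide that in tomato can stand in for the stem cell signal CLV3, had 14.2, 11.8 and 14 RPKM in slful, against 2.4, 4.79 and 5.01 RPKM in WT. Each slful library held more than 2 times the highest WT value. It rose by 1.65 log2 units (SE 0.36, adjusted p = 0.0499), lost without slful TM replicates 2 or 3 or WT TM replicates 1 or 3 (adjusted p = 0.144 to 0.278), in a range of 0.00438 to 0.278. CLV3 itself (so listed, Solyc11g071380) had 29.9, 37.7 and 42.2 RPKM in slful, against 17.5, 25.8 and 23.5 RPKM in WT, without overlap, and a difference of 0.71 (SE 0.4, adjusted p = 0.556). Its counterpart in the stem cell loop, listed as WUS (Solyc02g083950), had 23.3, 32.1 and 23.4 RPKM in slful, against 12.6, 29 and 19.8 RPKM in WT, with overlap, and a difference of 0.41 (SE 0.22, adjusted p = 0.52). The KNOX gene listed as TKN2 (Solyc02g081120), which keeps meristem cells undifferentiated, had 149, 188 and 191 RPKM in slful, against 136, 158 and 162 RPKM in WT. Summed over the 5 meristem markers, the level was 239.6, 288.6 and 293.8 RPKM in slful, against 198.0, 239.9 and 247.7 RPKM in WT.

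The 4 genes that also passed with the 6 TM libraries alone, and that kept their call under every alternative run, are an enzyme of the cell wall, an oxygenase, a gene of unknown function and a chaperone. The gene Solyc12g040860, deposited as a glucan endo-1,3-beta-glucosidase, a kind of enzyme that cuts the wall polymer callose, had 3.98, 3.12 and 6.86 RPKM in slful, against 0.0108, 0.0412 and 0.0511 RPKM in WT. It rose by 3.2 log2 units (SE 0.22, adjusted p = 1.97e-08), the largest change called. A 2-oxoglutarate (2OG) and Fe(II)-dependent oxygenase gene (Solyc04g009860) had 3.92, 4.68 and 4.32 RPKM in slful, against 0.0888, 0.211 and 0.0299 RPKM in WT and rose by 2.99 log2 units (SE 0.19, adjusted p = 1.1e-08). The oxygenase locus with the preceding number in the annotation (Solyc04g009850) had 1.11, 0.583 and 0.386 RPKM in slful, against 0.0124, 0.118 and 0 RPKM in WT, and its difference of 1.1 (SE 0.27, adjusted p = 0.0874) became adjusted p = 0.0419 with replicate as a block, in a range of 0.0149 to 0.336.

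An unknown protein gene (Solyc12g036267) had 3.07, 3.81 and 4.62 RPKM in slful, against 0.237, 0.337 and 0.15 RPKM in WT and rose by 2.54 log2 units (SE 0.32, adjusted p = 0.000403). Solyc06g076540, a Class I heat shock protein of a family of small chaperones, had 2.16, 1.67 and 2.11 RPKM in slful, against 0, 0 and 0.0238 RPKM in WT. It was close to silent in all 3 WT libraries, with 1 read in total, and rose by 2.28 log2 units (SE 0.2, adjusted p = 8.27e-07). Of the 6 small heat shock genes tested, this 1 rose and 0 fell, against 0.245% and 0.122% of all genes tested. Their median difference was -0.05. The family has near-identical copies, and no source used here says how reads were shared among them.

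Called genes without a single read in WT numbered 3. Solyc06g050340, a high mobility group B protein of a DNA-binding chromatin family, had 1.2, 2.57 and 1.84 RPKM in slful, against 0, 0 and 0 RPKM in WT. This was 149 reads over the slful libraries and 0 over WT, at least 30.7-fold higher against a floor of 3 reads per library, which covers counting error only. Its adjusted p was 0.00406, and the call was lost without slful TM replicates 2 or 3 or WT TM replicate 3 (adjusted p = 0.0506 to 0.0859), in a range of 5.95e-05 to 0.0859. The same held for a pair of loci close in number and without a known role. Solyc01g056653 had 93 reads in slful and 0 in WT, or at least 20.3-fold more (adjusted p = 0.00112), and Solyc01g056657 had 28 reads in slful and 0 in WT, or at least 6.11-fold more (adjusted p = 0.00669). The first kept its call without any 1 library, and the second lost it without slful TM replicates 2 or 3 or WT TM replicate 3 (adjusted p = 0.0574 to 0.138).

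Called genes with a description also included a glutathione S-transferase, a proteinase inhibitor, a stress responsive protein and a lactoylglutathione lyase. A glutathione S-transferase gene (Solyc06g075520), of a family that attaches glutathione to toxic compounds, had 10.9, 9.03 and 7.65 RPKM in slful, against 2.92, 1.23 and 2.69 RPKM in WT and rose by 1.85 log2 units (SE 0.36, adjusted p = 0.0269). Proteinase inhibitor 1 PPI3A2 (Solyc09g089530), of a family known from wound responses, had 30.8, 15.1 and 9.92 RPKM in slful, against 5.5, 4.65 and 1.41 RPKM in WT and rose by 2.14 log2 units (SE 0.4, adjusted p = 0.023). Both genotypes varied over 3-fold between libraries for this inhibitor. A stress responsive A/B barrel domain-containing protein gene (Solyc11g066950) had 35.3, 25.9 and 44.8 RPKM in slful, against 9.02, 15.3 and 11.2 RPKM in WT and rose by 1.54 log2 units (SE 0.24, adjusted p = 0.00406). A lactoylglutathione lyase gene (Solyc01g103590), an enzyme that removes methylglyoxal, had 30.8, 33.6 and 35.8 RPKM in slful, against 18.5, 12.9 and 12.1 RPKM in WT and rose by 1.2 log2 units (SE 0.21, adjusted p = 0.0107). Calls were lost without slful TM replicates 2 or 3 or WT TM replicates 2 or 3 (adjusted p = 0.0582 to 0.192) for the transferase, slful TM replicates 2 or 3 or WT TM replicate 3 (adjusted p = 0.0546 to 0.178) for the inhibitor, slful TM replicate 3 or WT TM replicate 3 (adjusted p = 0.0506 to 0.116) for the A/B barrel gene and slful TM replicates 2 or 3 or WT TM replicate 3 (adjusted p = 0.0714 to 0.185) for the lyase. The ranges over the alternatives were 0.00205 to 0.192, 0.00369 to 0.366, 0.00141 to 0.18 and 0.00142 to 0.185 in the same order.

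A cytochrome P450 gene (Solyc01g108210) had 12.9, 5.92 and 12.7 RPKM in slful, against 2.98, 2.59 and 3.19 RPKM in WT and rose by 1.61 log2 units (SE 0.3, adjusted p = 0.0195). Solyc05g005290, described as a poly ADP-ribose polymerase, an enzyme that marks proteins at sites of DNA damage, had 0.52, 1.17 and 1.57 RPKM in slful, against 0.0689, 0.0262 and 0.195 RPKM in WT and rose by 1.36 log2 units (SE 0.25, adjusted p = 0.0203). The auxin-regulated IAA3 gene (Solyc09g065850), of a family that represses auxin responses, had 2.48, 1 and 1.13 RPKM in slful, against 0.399, 0.243 and 0.484 RPKM in WT and rose by 1.16 log2 units (SE 0.25, adjusted p = 0.0456). Its slful TM replicate 1 was more than 2 times the other slful libraries. These calls were lost without slful TM replicate 3 or WT TM replicate 3 (adjusted p = 0.101 to 0.208) for the P450 gene, slful TM replicates 2 or 3 or WT TM replicate 3 (adjusted p = 0.0846 to 0.221) for the polymerase and slful TM replicates 2 or 3 or WT TM replicates 1, 2 or 3 (adjusted p = 0.0714 to 0.192) for IAA3, with ranges of 0.00181 to 0.229, 0.000324 to 0.277 and 0.00697 to 0.344 over the alternatives.

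Ankyrin repeat gene Solyc07g061750, of a family of protein-binding repeats, had 6.33, 4.86 and 4.68 RPKM in slful, against 2, 1.78 and 1.69 RPKM in WT and rose by 1.31 log2 units (SE 0.25, adjusted p = 0.023). The FCS-Like Zinc finger 3 gene (Solyc01g088660) had 44.2, 47.9 and 36.9 RPKM in slful, against 20.1, 27 and 23.8 RPKM in WT and rose by 0.85 log2 units (SE 0.17, adjusted p = 0.0269). Solyc02g087210, described as a Zinc finger AN1 domain-containing stress-associated protein 12, had 9.66, 7.29 and 11.6 RPKM in slful, against 5.58, 3.46 and 2.5 RPKM in WT and rose by 1.24 log2 units (SE 0.24, adjusted p = 0.0243). In all 3 the slful libraries lay above the WT libraries. Calls were lost without slful TM replicates 2 or 3 or WT TM replicate 3 (adjusted p = 0.09 to 0.169) for the ankyrin gene, slful TM replicates 2 or 3 or WT TM replicates 1 or 3 (adjusted p = 0.0805 to 0.173) for the FCS-like gene and slful TM replicates 2 or 3 or WT TM replicate 3 (adjusted p = 0.0574 to 0.231) for the AN1 gene, in ranges of 0.00361 to 0.169, 0.00519 to 0.187 and 0.00239 to 0.336.

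A pair of loci with adjacent numbers, both described as conserved oligomeric Golgi complex subunit 3, a part of a tether for Golgi vesicles, rose together and were singled out after their values were seen. Solyc07g017520 had 8.77, 10.4 and 8.94 RPKM in slful, against 4.64, 4.07 and 4.66 RPKM in WT, and Solyc07g017530 had 9.61, 9.55 and 8.83 RPKM in slful, against 5.07, 4.97 and 4.92 RPKM in WT. They rose by 0.99 log2 units (SE 0.13, adjusted p = 0.00042) and 0.84 log2 units (SE 0.17, adjusted p = 0.0279). The first kept its call without any 1 library, and the second lost it without slful TM replicates 2 or 3 or WT TM replicate 3 (adjusted p = 0.148 to 0.206). No source used here says whether the loci are fragments of 1 gene or copies that share reads. The pistil extensin like protein gene (Solyc01g006390), a cell wall protein, was the most abundant gene to rise among those named here, with 489, 445 and 401 RPKM in slful, against 279, 244 and 294 RPKM in WT, a rise of 0.71 log2 units (SE 0.14, adjusted p = 0.0252). Its call was lost without slful TM replicates 2 or 3 or WT TM replicate 3 (adjusted p = 0.101 to 0.133), in a range of 0.00155 to 0.202.

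Among the 23 genes that fell, 6 have a deposited description. Thiamine thiazole synthase, chloroplastic (Solyc07g064160), an enzyme of vitamin B1 synthesis, had 23.5, 17.8 and 26 RPKM in slful, against 54.1, 41.2 and 59.9 RPKM in WT. It fell by 1.19 log2 units (SE 0.25, adjusted p = 0.0411), lost without slful TM replicates 2 or 3 or WT TM replicates 1 or 3 (adjusted p = 0.0807 to 0.233), in a range of 0.00318 to 0.233. An Avr9/Cf-9 rapidly elicited protein gene (Solyc03g120930), named for a defence response, had 3.47, 4.14 and 4.18 RPKM in slful, against 10.4, 10.1 and 7.99 RPKM in WT and fell by 1.17 log2 units (SE 0.25, adjusted p = 0.0436). Methyl-CpG-binding domain-containing protein 6 (Solyc11g073080), of a family that binds methylated DNA, had 10.2, 8.29 and 6.36 RPKM in slful, against 21.4, 17.9 and 15.6 RPKM in WT and fell by 1.11 log2 units (SE 0.19, adjusted p = 0.0107). The elicited gene lost its call without slful TM replicates 2 or 3 or WT TM replicates 1, 2 or 3 (adjusted p = 0.0642 to 0.223) and the methyl-CpG-binding gene without slful TM replicates 2 or 3 or WT TM replicate 3 (adjusted p = 0.0506 to 0.195), in ranges of 0.00552 to 0.223 and 0.000992 to 0.202.

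Exocyst complex component SEC3A (Solyc10g073357), part of a tether for vesicles at the cell surface, had 0.789, 0.679 and 0.501 RPKM in slful, against 2.2, 1.54 and 1.93 RPKM in WT and fell by 1.05 log2 units (SE 0.21, adjusted p = 0.0269). Solyc07g054630, a gene of the plant B3 domain family of DNA-binding proteins, had 5.22, 5.31 and 4.56 RPKM in slful, against 10.8, 8.11 and 10.6 RPKM in WT and fell by 0.89 log2 units (SE 0.15, adjusted p = 0.0107). Neither gene had any overlap between the genotypes. Calls were lost without slful TM replicates 2 or 3 or WT TM replicates 1 or 3 (adjusted p = 0.0735 to 0.257) for SEC3A and slful TM replicates 2 or 3 or WT TM replicate 3 (adjusted p = 0.0574 to 0.191) for the B3 gene, in ranges of 0.00353 to 0.257 and 0.00155 to 0.191. The other described gene that fell is FUL1.

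Leaf and photosynthesis markers were lower in slful in 9 of the 9 loci tested, and 1 was called lower, against 0.122% of all genes tested. In only 1 of the 9 was every slful library below every WT library, against 9.74% of all genes tested. With 1 library left out, the differences of Solyc02g070950 and Solyc02g070980 ran up to 0.14 and 0.11, so not all 9 signs held. Over all genes, 8258 of 18786 differences were above 0, so most genes also had a difference at or below 0. The locus listed as CAB (Solyc03g005760), a protein that binds chlorophyll, had 322, 298 and 345 RPKM in slful, against 729, 544 and 538 RPKM in WT and fell by 0.89 log2 units (SE 0.14, adjusted p = 0.00406), lost without slful TM replicate 2 (adjusted p = 0.0567), in a range of 0.000288 to 0.187. The median difference of the list was -0.59, against -0.02 over all genes tested. Summed over its 10 loci, the level was 789.4, 619.0 and 675.5 RPKM in slful, against 1553, 1072 and 844.6 RPKM in WT, and WT TM replicate 1 was the highest. One locus of this list, a small subunit of Rubisco (Solyc07g017950), had 0 RPKM in all 3 slful libraries and was above 0 in all 3 WT libraries. It did not reach 0.5 RPKM in 3 libraries and was not tested. Detection near 0 depends on depth, which was 12.93 to 38.73 M reads in slful TM and 32.04 to 90.37 M in WT TM. The part of leaf tissue in the other differences was not tested.

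**Figure D4:**
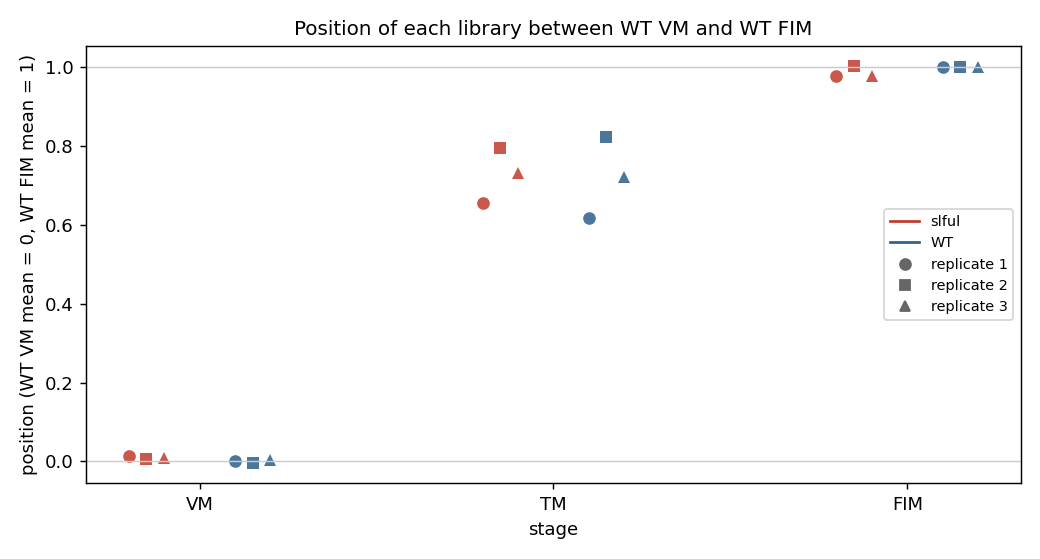
Position of each VM, TM and FIM library on a scale from the WT VM mean (0) to the WT FIM mean (1), slful in red left of WT in blue, over genes that differed between those WT stages. In both genotypes TM replicate 1 is lowest and TM replicate 2 highest.

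The TM libraries of each genotype differed in their position on an expression scale between VM and FIM. On a scale set by 1060 genes higher and 774 genes lower in WT FIM than in WT VM, where 0 is WT VM and 1 is WT FIM, they stood at 0.656, 0.795 and 0.731 in slful, against 0.618, 0.822 and 0.722 in WT. The genotypes overlapped, and the replicate numbers fell in the same order in both. The slful and WT VM libraries lay between -0.005 and 0.014. The SFIM libraries stood at 0.556 to 0.572 in slful and 0.588 to 0.608 in WT, below every TM library. Position is therefore not a plain measure of progress through the transition, and what sets it in each pool was not tested. With this position as a covariate, an alternative chosen after seeing the data, 329 genes were called (1.75% of the genes tested), 167 higher (0.889%) and 162 lower (0.862%), and all 69 were among them in the same direction. SFT then had adjusted p = 0.0114 and J 0.0407, in ranges of 0.0114 to 0.428 and 0.0407 to 0.411 over the alternatives, while macrocalyx gave 0.0656, in a range of 0.0226 to 0.511.

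The remaining lists made by locus ID held 0 calls each. Of 5 floral organ MADS-box genes 2 were tested, with a median difference of 0.29. The 8 SBP-box genes, targets of the age-dependent microRNA miR156, had a median difference of -0.03. Among them the locus listed as SBP15 (Solyc10g078700) had the smallest adjusted p, with 129, 141 and 132 RPKM in slful, against 84.8, 84 and 104 RPKM in WT and a difference of 0.56 (SE 0.14, adjusted p = 0.0928), which became 0.00977 with replicate as a block, in a range of 0.00935 to 0.35. The 5 APETALA2-like genes had a median of 0.04. Of 11 gibberellin synthesis and breakdown genes 4 were tested, and the locus listed as GA20ox1 (Solyc03g006880), an enzyme of gibberellin synthesis, had 2.42, 3.01 and 1.94 RPKM in slful, against 0.515, 1.96 and 1.03 RPKM in WT and a difference of 0.91 (SE 0.25, adjusted p = 0.13). All 4 gibberellin perception genes were below 0, with a median of -0.30. The 8 YABBY genes tested, markers of the outer side of leaf and flower primordia, had a median of -0.14. The 8 flavonoid synthesis genes tested had a median of -0.34 and 0 above 0, where 8258 of all 18786 genes tested were above 0. In 1 of the 8 every slful library was below every WT library, against 9.74% of all genes tested. With 1 library left out, Solyc09g091510, Solyc02g083860, Solyc05g052240 and Solyc11g013110 reached 0.15, 0.07, 0.05 and 0.1, so not all 8 signs held. In that list chalcone synthase 2 (Solyc05g053550), the entry enzyme, had 54, 45.7 and 30.1 RPKM in slful, against 80.2, 54.1 and 56.7 RPKM in WT, and the loci listed as DFR (Solyc02g085020) and ANS (Solyc08g080040), late enzymes, were highest in WT TM replicate 1 at 9.41 and 12.2 RPKM.

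The same contrast was then read in the other stages. These use separate libraries, but every contrast came from the same fit over all 24 libraries. Calls at different stages share each gene's estimated variance, so their overlap is not independent replication. Of the 46 genes higher at TM, 22 were called higher at VM, 11 at FIM and 19 at SFIM, where 1.31%, 0.0798% and 1.65% of all genes tested were called higher. As a share of the calls at those stages, these are 8.91% of 247 at VM, 73.3% of 15 at FIM and 6.13% of 310 at SFIM. Of the 23 genes lower at TM, 3 were called lower at VM, 4 at FIM and 4 at SFIM, against 0.351%, 0.0479% and 0.431% of all genes tested. As shares of the lower calls at those stages these are 4.55%, 44.4% and 4.94%. The genes that rose had the same sign in 41, 45 and 37 of 46 at VM, FIM and SFIM, and those that fell in 15, 20 and 9 of 23. At VM, FIM and SFIM the median difference was 0.59, 0.9 and 0.32 for the genes that rose. For those that fell it was -0.06, -0.29 and 0.0, against 0.00755, -0.0663 and 0.0214 over all genes tested. The genes that fell thus lay near the median of all genes at VM and SFIM.

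By words in the deposited descriptions, further groups held calls, to be read against the 10.9% of described genes that were called. Of 24 genes found by words for transcription factors 4 rose and 0 fell, namely MBP20, TM3, the FCS-like gene and the AN1 gene. Of 8 genes found by MADS-box words 2 rose and 1 fell, and these are MBP20, TM3 and FUL1. Of 6 with glutathione in the description 2 rose, the transferase and the lyase named above. Of 6 cytochrome P450 genes 2 rose, Solyc01g108210 and Solyc01g109150. Solyc01g109150, described as CYP74C4, had 9.04, 8.94 and 6.67 RPKM in slful, against 2.48, 5.58 and 4.3 RPKM in WT, without overlap, and rose by 0.96 log2 units (SE 0.19, adjusted p = 0.0284), lost without slful TM replicates 2 or 3 or WT TM replicates 1 or 3 (adjusted p = 0.0836 to 0.164), in a range of 0.00314 to 0.396. Of 10 with 2-oxoglutarate 1 rose, of 9 found by words for chitinase and glucanase 1 rose, of 2 with auxin 1 rose, and of 3 with B3 domain 1 fell. The words for heat shock and for chromatin each found 1 tested gene, the heat shock and high mobility group genes named above, and both rose. The 1 call among 6 genes found by the letters of ethylene is a methylenetetrahydrofolate reductase, whose name holds those letters. The words for kinase, transporter, peroxidase and gibberellin, with 7, 3, 1 and 1 genes tested, held 0 calls.

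In the same direction at all 4 stages 10 genes were called, within the same fit and its shared gene variances. They are TM3, the oxygenase Solyc04g009860, the high mobility group gene Solyc06g050340, the heat shock gene Solyc06g076540, Solyc07g017520, the pistil extensin like gene Solyc01g006390, an amidase gene (Solyc01g111220), the B3 gene Solyc07g054630 and the unknown protein genes Solyc12g036267 and Solyc01g056653. TM3 gave 0.99 (SE 0.13, adjusted p = 0.000119) at VM, 1.68 (SE 0.25, adjusted p = 0.00176) at FIM and 1.38 (SE 0.13, adjusted p = 9.69e-07) at SFIM. FUL1 gave -0.36 (SE 0.14, adjusted p = 0.27) at VM, -1.41 (SE 0.27, adjusted p = 0.0305) at FIM and -1.25 (SE 0.14, adjusted p = 1.59e-05) at SFIM. MBP20 gave 1.31 (SE 0.09, adjusted p = 1.48e-08) at VM, 0.39 (SE 0.18, adjusted p = 0.432) at FIM and 0.43 (SE 0.09, adjusted p = 0.013) at SFIM.

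At no other stage were 36 of the 69 called, 19 higher and 17 lower, which is 52.2% of them. Cytokinin oxidase/dehydrogenase 2, both TRR16/17 loci, CLE9, the A/B barrel gene, IAA3, CAB and the thiamine enzyme are among the genes of this kind named here. Cytokinin oxidase6 (Solyc12g008900) was called at VM, with 4.03 ± 0.567 RPKM in slful against 1.34 ± 0.53 in WT (n = 3 each) and 1.33 (SE 0.33, adjusted p = 0.0418), and was -0.78 (SE 0.32, adjusted p = 0.25) at SFIM. The A/B barrel gene Solyc11g066950 gave -0.05 (SE 0.16, adjusted p = 0.948) at VM, 0.88 (SE 0.3, adjusted p = 0.413) at FIM and 0.01 (SE 0.15, adjusted p = 0.998) at SFIM. A test of the TM difference against the mean of the differences at the other stages called 0 genes (limma, 1478 at an unadjusted p under 0.05, and 0 with voom on the recovered reads). In that test CAB (Solyc03g005760) gave a difference of differences of -0.91 and adjusted p = 0.111, and cytokinin oxidase6 gave 2.19 and 0.237. So no gene is shown here to differ in its slful effect between TM and the other stages, and FIM, whose slful libraries vary most (median SD 0.233), called 24 genes (0.128%), against 313 at VM (1.67%) and 391 at SFIM (2.08%).

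**Figure D5:**
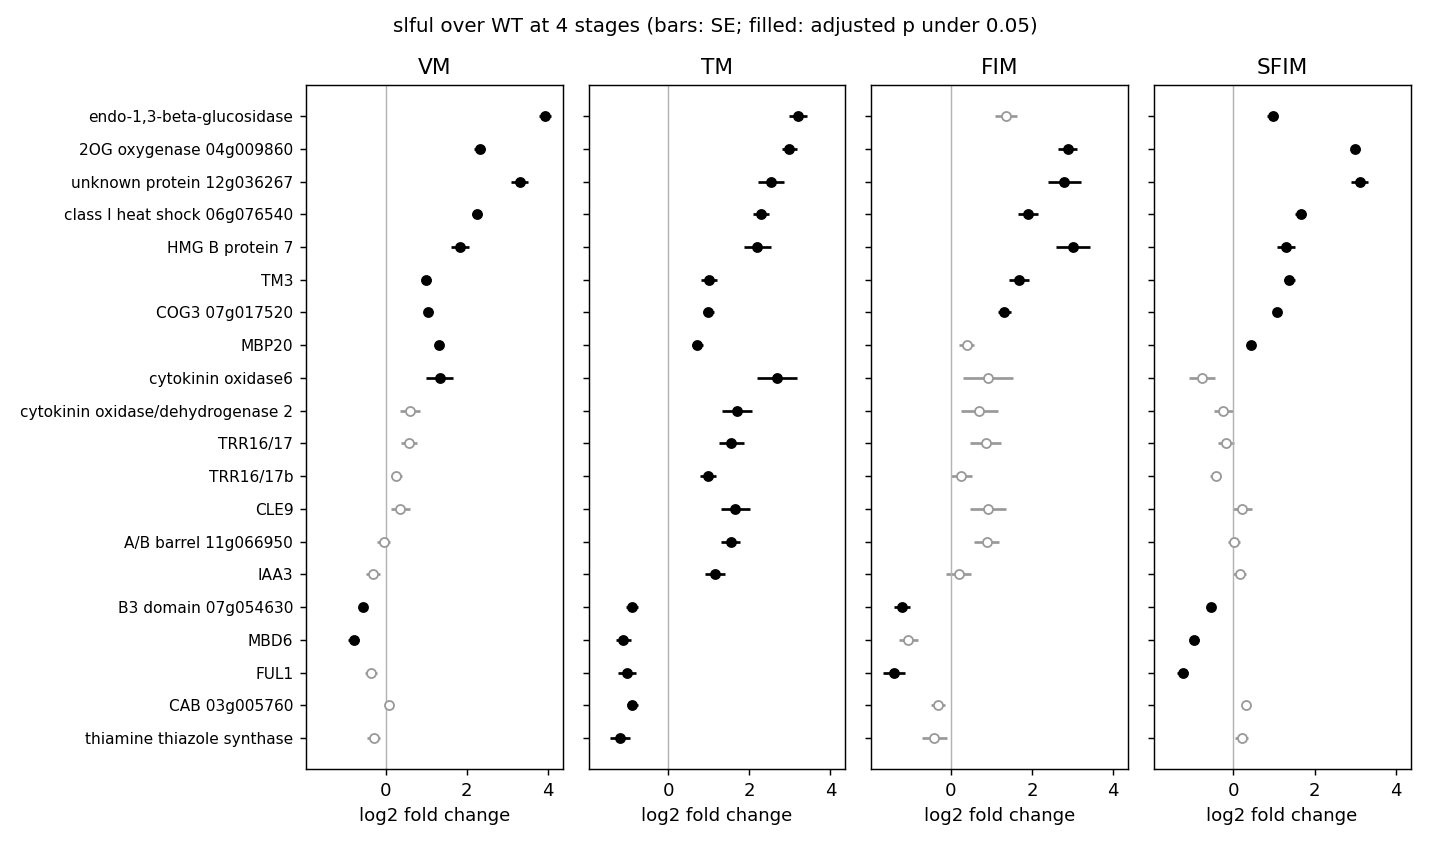
Log2 fold change of slful over WT with its SE for 20 genes at VM, TM, FIM and SFIM, filled where the adjusted p was under 0.05. TM3 and the 2OG oxygenase lie right of 0 and filled at all 4 stages, whereas the cytokinin genes and CLE9 lie farthest from 0 at TM. The test of the TM difference against the other stages called 0 genes, so these distances do not show a stage difference.

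The authors' deposited table for TM lists 124 genes, 103 higher and 21 lower in slful, each with an absolute log2 fold change of at least 1.01 and a false discovery rate of at most 0.0495. Of these, 103 passed the filter here and 37 were called, all in the direction given in the authors' deposited table. The sign of the mean RPKM difference matched in all 124. The fold changes in both sets rest on the same 6 TM libraries, so the match in direction is not an independent check. The calls made here also draw their variances from all 24 libraries. Of the 69 genes called here, 32 are not in the authors' deposited table, and 3 of those changed over 2-fold.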

How the data were processed

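RNA from pooled meristems was sequenced with a TruSeq RNA kit, per the labels' protocols; no source used here names the strandedness, aligner, counter or genome build. Per gene, the authors deposited RPKM values for 24 libraries (8 groups of 3), and tables of their own comparisons. In these the deposited columns hold a log2 fold change, a signed fold (score), p-values and false discovery rates. No gene ID matched the reference table held, so coordinates and sequences are not given, and 1 line of the authors' TM table is not reported here.

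Reads behind the RPKM values were recovered from the smallest step of each library with Python 3.11.15, numpy 2.4.6 and pandas 2.3.3. All 25568 genes above 0 came out whole (largest distance 0.00369 reads, tolerance 0.01). They gave the depths, the floors and 1 alternative test. For a gene of 1 kb the floor of 3 reads was 0.0775 to 0.232 RPKM in slful TM and 0.0332 to 0.0936 in WT TM.

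Genes reaching 0.5 RPKM in 3 or more libraries were tested on log2(RPKM + 0.5) in limma 3.58.1 (R 4.3.3), with 1 mean and 1 variance weight per group over all 24 libraries (weights 0.686 for slful TM and 0.656 for WT TM), a variance trend and 2-sided tests. Group weights were used because the groups differ in spread. The fit behind the 69 calls has no replicate term. Deviations of same-numbered TM libraries correlated (0.23, 0.18 and 0.15; other numbers -0.31 to 0.15), so a fit with replicate number as a block is given beside results whose call it changes; the labels do not say what a number marks. Alternatives were other filters, pseudocounts (0.1 and 1 RPKM), scalings, variance models and library sets, voom on the recovered reads, the replicate block, each TM library left out, and, chosen after seeing the data, stage position as a covariate.

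The comparison, lists, tests and named genes were chosen with earlier results of these data known. Named genes are those of the lists given by locus ID, the 15 with the largest change in each direction that were called, described, without overlap and with a mean of at least 1 RPKM in the higher group, genes by description word or by the TM test against other stages, those called with the 6 TM libraries alone, and called genes at 0 reads in 1 genotype; not all of these are given by value. P-values measure the spread between pools of meristems. Stage position is a least-squares slope over genes that differed between WT VM and WT FIM. For each library, the log2 difference from the WT VM mean was fitted on the WT FIM minus WT VM difference. Genes with a larger stage difference thus weigh more.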

Additional observations from a re-analysis of the deposited data

How the results depend on the processing

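The count of 69 calls was 339 without group weights (153 higher, 186 lower), 4 with the 6 TM libraries alone, 42 with a mean of at least 1 RPKM at TM, 183 with the replicate block and 329 with stage position as a covariate, chosen after seeing the data; leaving out 1 TM library gave 9 to 165. It was 42 to 86 under the other filters, pseudocounts, scalings and variance models and with TM and FIM libraries alone. Of the 69 genes, 4 were called with the 6 TM libraries alone, 30 with the 12 TM and FIM libraries, 42 with the higher filter, 43 without a variance trend and 9 to 66 with 1 library left out, and 57 to 69 under the others. The test of TM against the other stages called 24 without weights, 2 without a filter, 1 without a trend, 16 with stage position and 0 to 20 with 1 library left out, against 0. With 1 library left out, MBP10 ran from -0.02 (without slful TM replicate 2) to 0.16, AN from -0.63 to 0.0 and 0.15 (without slful TM replicate 1 and WT TM replicate 2), and the locus listed as TRR3/4a (Solyc10g079600) from -0.05 (without slful TM replicate 3 or WT TM replicate 1) to 0.67. The cause was not tested. Under the replicate block 36 of 36 named calls held and 4 were gained (SFT, SBP15, Solyc04g016430 and Solyc04g009850); it changed no other named call. Of the 36, 4 kept their call under every alternative run and 0 reversed. Low genes are limited by the 12.93 M reads of slful TM replicate 1.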
